A study of Mus musculus with 12 samples.

Results

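The mitochondrial ribosomal protein genes were taken as every gene of the deposited expression table whose symbol consists of Mrpl or Mrps followed by a number and at most 1 letter. This rule found 78 genes among 24528, of which 49 carry an Mrpl symbol, for the large subunit, and 29 an Mrps symbol, for the small subunit. All 78 passed the filter on low values, which left 12201 genes to test, and each had between 99 and 2694 estimated reads in every library. Poly-A RNA of bulk gastrocnemius, a calf muscle, was sequenced from 12 male mice aged 4 months, 6 per group, and each library is 1 mouse. WT mice had the genotype Ank2f/f, and KO mice the genotype Ank2f/f; HSA-Cre+, so both groups carried the floxed alleles and the WT mice no Cre. HSA-Cre is commonly a Cre transgene under the human skeletal actin promoter, which is active in muscle fibres, so the other cells of the tissue may keep the gene. Ank2 encodes ankyrin-B, an adaptor between membrane proteins and the spectrin cytoskeleton, and the question is how its deletion in muscle alters the transcriptome.

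The mitochondrial ribosome translates the few proteins encoded by mitochondrial DNA, all of them core subunits of the oxidative phosphorylation complexes on which muscle depends for ATP. Its ribosomal RNAs come from mitochondrial DNA, whereas its proteins are encoded in the nucleus, made in the cytosol and imported. The small subunit binds the mRNA and decodes it, and the large subunit joins amino acids and is held at the inner membrane, where the products are inserted. Some of the proteins have bacterial counterparts, and others occur only in mitochondrial ribosomes.

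All values below are on the log2 scale of the deposited table, a change is KO minus WT with the standard error (SE) of the limma fit, and adjusted p-values are Benjamini-Hochberg values over all 12201 genes, with a threshold of 0.05. Estimated depth ran from 12251307 to 18709281 reads per library. Ank2 stood at 8.55, 8.81, 9.18, 8.40, 9.22 and 9.15 in WT 1 to WT 6 and at 8.03, 7.63, 7.74, 7.58, 7.54 and 7.90 in KO 1 to KO 6, so that the labels and the targeted gene matched in every library. Its change was -1.15 (SE 0.14, limma adjusted p = 0.000885) on the deposited scale, which compresses differences between low values. In estimated reads, KO muscle held 33.1% of the WT level. The 10 fast fibre markers had list means of 16.953 to 17.460 in the 12 libraries, where the mean over all tested genes was 8.454 to 8.492. In bulk tissue, fewer cells of a type and less RNA per cell cannot be told apart.

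Most mRNAs for the mitochondrial ribosome changed by little between the genotypes. Of the 78 genes, Mrpl41 and Mrpl13 rose and none fell by the adjusted test. That is 2.56% rising, where 3.11% of all tested genes rose, and 0% falling, where 3.08% of all tested genes fell. The median change was 0.064, with quartiles of -0.002 and 0.136, and 58 genes had a positive and 20 a negative change. Over all tested genes the median was -0.009 and 47.6% were positive. At an unadjusted p of 0.05 or less, 12 genes were higher in KO (15.4%, against 11.9% of all tested genes) and 1 was lower (1.28%, against 14.1%).

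The precision of the design bounds what could have been missed. On the deposited scale, the 95% confidence interval of the change lay within 0.585 (the log2 of a 1.5-fold change) on either side of 0 for 77 of the 78 genes. Mrpl41 alone reached beyond it, with an upper bound of 0.651. The lowest lower bound was -0.351, for Mrps9, and the median half-width of the interval was 0.169. That scale narrows the intervals, so they were also taken from the limma-voom fit on estimated reads, a step added after the data were seen. There, 77 of 78 again lay within a 1.5-fold change, the bounds reached 0.823 for Mrpl41 and -0.424 for Mrps9, and the median half-width was 0.197. Spread between mice was close to that of other genes, with a median SD over the members of 0.144 in WT and 0.120 in KO, beside 0.135 and 0.155 over all tested genes.

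**Figure D1:**
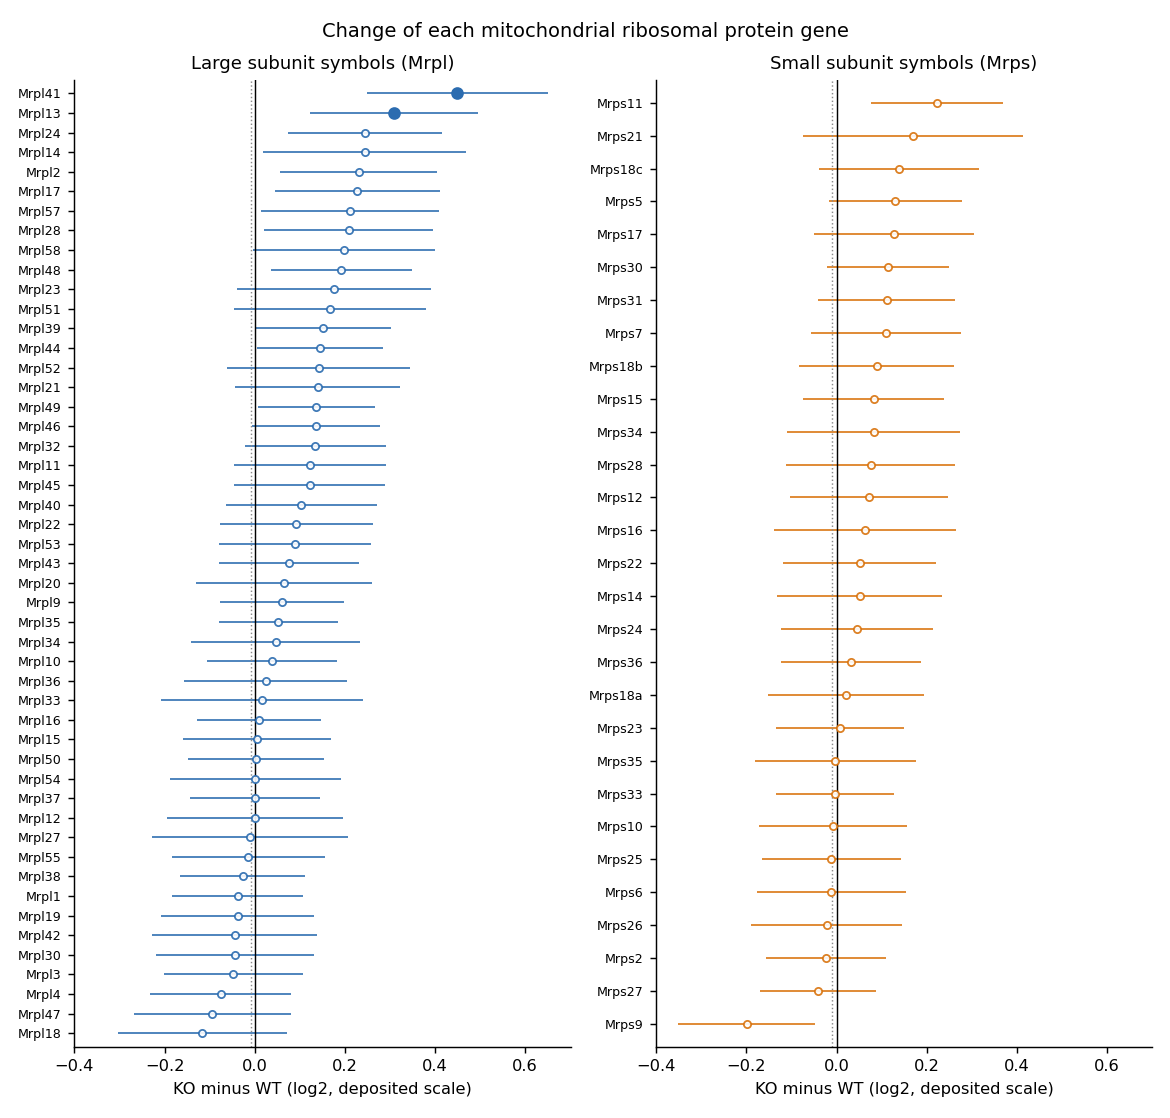
Change of each of the 78 genes (KO minus WT, log2, with its 95% interval), with large subunit genes and small subunit genes in separate panels and filled markers for the 2 genes that passed the adjusted test. Most points lie slightly to the right of 0, around medians of 0.076 and 0.052, and Mrpl41 is farthest right at 0.45.

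Changes of large subunit genes ran from -0.117 to 0.450 and those of small subunit genes from -0.199 to 0.223. The 49 Mrpl genes had a median change of 0.076, with 38 positive (77.6%), and the 29 Mrps genes a median of 0.052, with 20 positive (69%). Both genes that rose are Mrpl genes. Some symbols mislead, since the products of Mrps30 and Mrps18a sit in the large subunit and that of Mrps36 is a component of the 2-oxoglutarate dehydrogenase complex. With genes assigned by structure, the 51 large subunit genes had a median of 0.076 and the 26 small subunit genes 0.058. Within each library, the mean of the Mrpl genes exceeded the mean of the Mrps genes by 0.175 to 0.253 in WT and by 0.230 to 0.293 in KO. These ranges overlap, and the group means of the difference stood 0.0351 apart. The gap itself depends on the lengths of the genes in each class, so it was read only as a comparison between libraries. That comparison is not free of length either, since changes moved with transcript length over the whole table, as given below.

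Genes were also divided by ancestry, again with subunits assigned by structure. Of the large subunit genes, the 31 with bacterial counterparts had a median change of 0.038 and the 20 found only in mitochondrial ribosomes one of 0.128, with 18 of the 20 positive. The order was the other way in the small subunit, at 0.077 for 16 genes counted as having bacterial counterparts and 0.002 for 10 counted as without. Mrps28, at 0.08, was counted among the 10, and the medians depend on such assignments. No test was made between these classes, whose genes share the same 12 libraries.

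Mrpl41, on chromosome 2 (mm10 24974117 to 24975098, minus strand), encodes a large subunit protein without a bacterial counterpart that is also known as a partner of the apoptosis regulator BCL2. It stood at 8.62, 8.24, 8.53, 8.47, 8.46 and 8.67 in WT 1 to WT 6 and at 9.17, 8.91, 9.09, 8.70, 8.71 and 9.10 in KO 1 to KO 6. All 6 KO values lay above all 6 WT values, although the lowest KO value was close to the highest WT value. The mean went from 8.50 ± 0.15 to 8.95 ± 0.21 (SD, n = 6 per group), a rise of 0.45 (SE 0.10, limma adjusted p = 0.0165), to 148.5% of the WT level in estimated reads. The exact two-sided permutation test, unadjusted here and below, gave p = 0.00216, the smallest that 924 assignments allow. Mrpl41 was the 1 gene of the 78 (1.28%) with every KO library above every WT library, which 1.26% of all tested genes were. None of the 78 had every KO library below every WT library, which 1.2% of all tested genes were. The gene rose in every alternative fit and with any 1 library left out, where its adjusted p ran from 0.00963 to 0.0462. No annotated exon of another gene overlaps it.

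The 300 bases around its start, from 250 before to 50 after, are shown because no other member rose as clearly. They come from RefSeq (GRCm38.p6), read 5′ to 3′ on the gene's strand, and hold none of the 3 motifs searched below.
Mrpl41, chr2:24975049-24975348, minus strand: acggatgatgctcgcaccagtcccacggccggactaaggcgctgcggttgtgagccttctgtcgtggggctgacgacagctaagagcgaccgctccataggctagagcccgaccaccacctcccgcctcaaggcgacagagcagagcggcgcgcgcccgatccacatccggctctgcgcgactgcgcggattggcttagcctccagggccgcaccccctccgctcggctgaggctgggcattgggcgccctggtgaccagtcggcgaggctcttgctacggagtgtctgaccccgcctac

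Mrpl13, on chromosome 15 (55534094 to 55557748, minus strand), encodes a large subunit protein with a bacterial counterpart. WT values were 9.47, 9.33, 9.26, 9.64, 9.24 and 9.57, and KO values 9.76, 9.69, 9.90, 9.50, 9.67 and 9.85, in the order of the library numbers. Of the KO values, 5 exceeded every WT value, and KO 4 lay below WT 4 and WT 6. The rise was 0.31 (SE 0.09, limma adjusted p = 0.0474; exact two-sided permutation p = 0.0108), from 9.42 ± 0.17 to 9.73 ± 0.14 (SD, n = 6 each). The call was lost when any 1 of 9 libraries was left out, with adjusted p up to 0.116 without WT 3, and held only without WT 4, KO 2 or KO 4. It was also lost with limma without trend or robust moderation (adjusted p = 0.0519), with limma-voom (0.0506) and with no filter (0.054). Of its exonic bases, 27.0% are shared with Mtbp on the opposite strand. The libraries did not mark strand, so reads of that stretch cannot be assigned to 1 gene. Mtbp itself had a change of 0.13 (limma adjusted p = 0.36).

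Among the other large subunit genes, Mrpl24 and Mrpl2 had the next smallest p-values. Mrpl24 had WT values of 8.95 to 9.33 (median 9.02) and KO values of 9.21 to 9.48 (median 9.30), a difference of 0.24 (SE 0.08, limma adjusted p = 0.0762). WT 4 held the highest WT value and lay above 4 of the KO values, and the adjusted p was 0.0345 without WT 4. Its exons share 38.2% of their bases with Rrnad1 on the opposite strand, whose own change was 0.64 (limma adjusted p = 0.269). WT 1 carries much of that value, since Rrnad1 stands at the floor there alone, and without WT 1 the change was 0.29 (adjusted p = 0.0723). Mrpl2 encodes a core protein near the catalytic centre of the large subunit. Its WT range was 9.90 to 10.29 and its KO range 10.16 to 10.49, a difference of 0.23 (SE 0.08, limma adjusted p = 0.0987), with overlapping groups. Mrpl18, whose bacterial counterpart binds the small ribosomal RNA of the large subunit, had the most negative large subunit change, -0.12 (SE 0.09, limma adjusted p = 0.417), with WT values of 10.20 to 10.56 and KO values of 10.11 to 10.42. Another 7 Mrpl genes (Mrpl14, Mrpl17, Mrpl28, Mrpl44, Mrpl48, Mrpl49 and Mrpl57) had unadjusted p of 0.05 or less, with changes of 0.14 to 0.24 and limma adjusted p of 0.116 to 0.18.

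No small subunit gene passed the adjusted test. Mrps11, a protein of the platform with a bacterial counterpart, had the largest positive change. Its values were 8.34, 8.24, 8.23, 8.47, 8.26 and 8.27 in WT 1 to WT 6 and 8.49, 8.56, 8.65, 8.33, 8.49 and 8.63 in KO 1 to KO 6. Of the KO values, 5 lay above every WT value, and KO 4 lay within the WT range. The difference was 0.22 (SE 0.07, limma adjusted p = 0.063; exact two-sided permutation p = 0.00649). It passed the threshold without WT 4 (adjusted p = 0.0394), without KO 4 (0.0333) and after quantile normalization (0.0489).

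Mrps9, which also has a bacterial counterpart, was the gene with the most negative change of all 78. It stood at 9.22, 9.04, 9.02, 9.06, 9.06 and 9.29 in WT and at 8.96, 8.99, 9.06, 8.92, 8.83 and 8.75 in KO. All KO values except that of KO 3 lay below the lowest WT value. The difference was -0.20 (SE 0.07, 95% interval -0.35 to -0.05, limma adjusted p = 0.1; exact two-sided permutation p = 0.00866). With the trend of change on transcript length removed it was -0.25 and passed the threshold (limma adjusted p = 0.0398). By p-value, Mrps5, a protein at the mRNA entrance, came next, with 0.13 (SE 0.07, limma adjusted p = 0.247), on values of 9.06 to 9.29 in WT and 9.07 to 9.41 in KO. The 3 genes whose products are not in the small subunit had changes of 0.11 (Mrps30, limma adjusted p = 0.266), 0.02 (Mrps18a, 0.891) and 0.03 (Mrps36, 0.81), with overlapping groups in each.

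**Figure D2:**
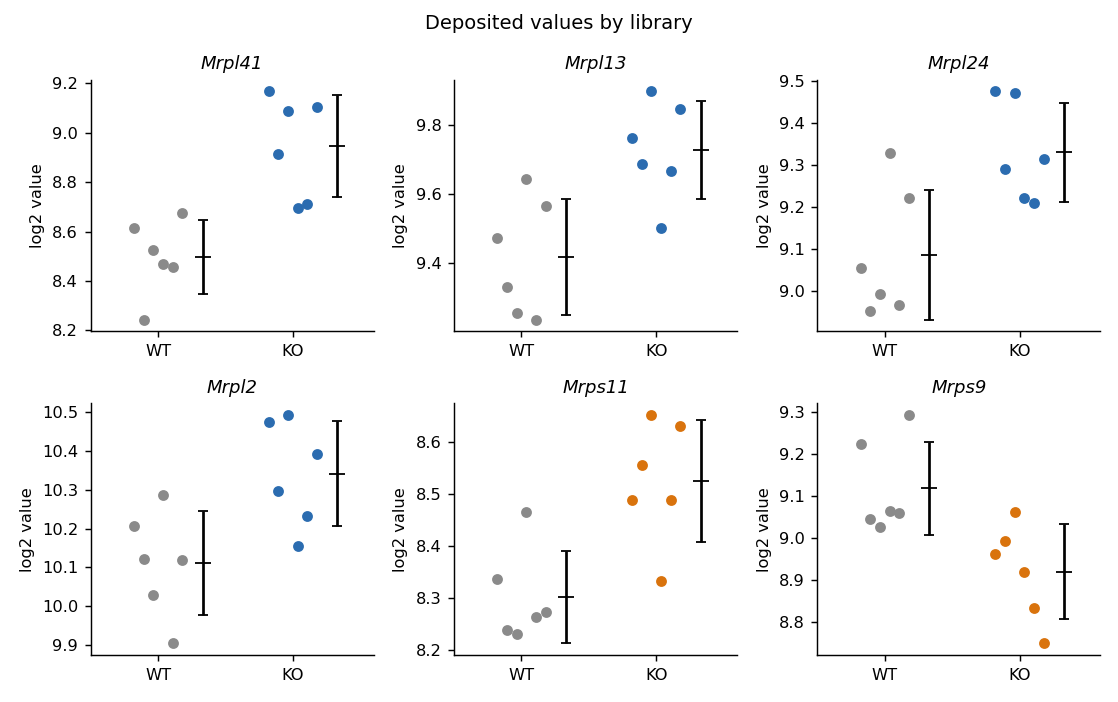
Deposited log2 values of the individual libraries for the named genes, with WT on the left and KO on the right of each panel. The groups are apart for Mrpl41 (8.24 to 8.67 in WT, 8.70 to 9.17 in KO) and overlap in the panels of the other members.

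Estimated levels per length differed widely between these mRNAs, although most of their products enter the ribosome as single copies. Levels are estimated reads scaled to 1 depth and divided by the median transcript length in kb, and they are given for WT unless stated. Between the highest and the lowest gene the ratio was 58.9, and the quartiles were 225.4, 404.6 and 727.5 reads per kb. That ratio rests in part on the annotated lengths, 661 bases for Mrpl42, the highest, and 3364 for Mrpl47, the lowest. Before scaling and division by length, a library held 1391 to 2144 estimated reads of Mrpl42 and 99 to 193 of Mrpl47. The large subunit median was 429.9 in WT and 467.9 in KO, and the small subunit median 374.2 in WT and 405.5 in KO. Mrpl42 was highest, at 2760 ± 353 among WT mice and 2660 ± 192 among KO mice (SD, n = 6 per group), and its difference was -0.04 on the log2 scale (limma adjusted p = 0.776). Mrps21, the highest small subunit gene, stood at 1973 ± 351 in WT and 2242 ± 364 in KO, with a log2 difference of 0.17 (limma adjusted p = 0.362). Mrpl30 came next at 1955 ± 252, which differs from Mrps21 by less than their spread, and then Mrpl33 at 1562 ± 273.

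At the other end, Mrpl47 was lowest at 46.9 ± 6.94 reads per kb in WT and 42.5 ± 5.90 in KO, with a log2 difference of -0.09 (limma adjusted p = 0.488). Mrps35 followed at 51.6 ± 6.07 in WT and 51.7 ± 8.31 in KO, a log2 difference of -0.00, and Mrpl19 at 56.9 ± 7.26 in WT. Each differs from its neighbour in this order by less than their SDs, whereas Mrps25, at 83.7 ± 8.34, lies above all 3. Length per gene is taken from the annotation, so a long transcript model that muscle does not use lowers the value.

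**Figure D3:**
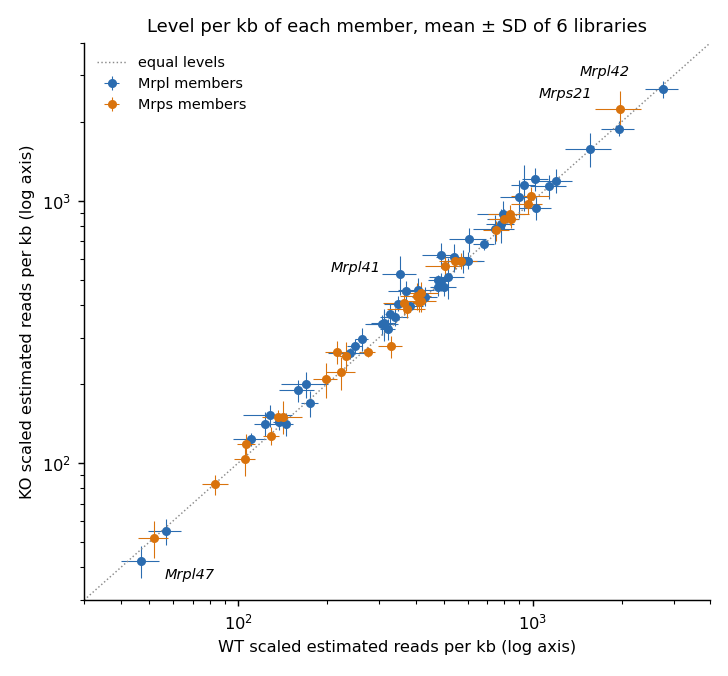
Level of each gene in KO against WT, in scaled estimated reads per kb on log axes, as mean ± SD of 6 libraries per group, with the dotted line for equal levels. The genes span a ratio of 58.9 in WT from Mrpl47 at 46.9 to Mrpl42 at 2760, and they follow the line of equal levels in both subunits.

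The genes moved partly together from mouse to mouse. The mean over all 78 genes was 9.30, 9.16, 9.15, 9.34, 9.13 and 9.35 in WT 1 to WT 6 and 9.35, 9.31, 9.40, 9.19, 9.27 and 9.35 in KO 1 to KO 6. The groups overlapped, with WT 4 and WT 6 among the high libraries and KO 4 among the low ones. Over the 12 libraries, deviations from the group means correlated at 0.388 on average between pairs of members. The average was 0.385 within the large subunit, 0.400 within the small subunit and 0.386 between the subunits, so that pairs across subunits were about as close as pairs within. Pairs of cytosolic ribosomal protein genes averaged 0.752 and pairs of complex I genes 0.614, while members averaged 0.486 with the former and 0.456 with the latter. These are descriptions, since all pairs share the same libraries and their depth and RNA quality.

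**Figure D4:**
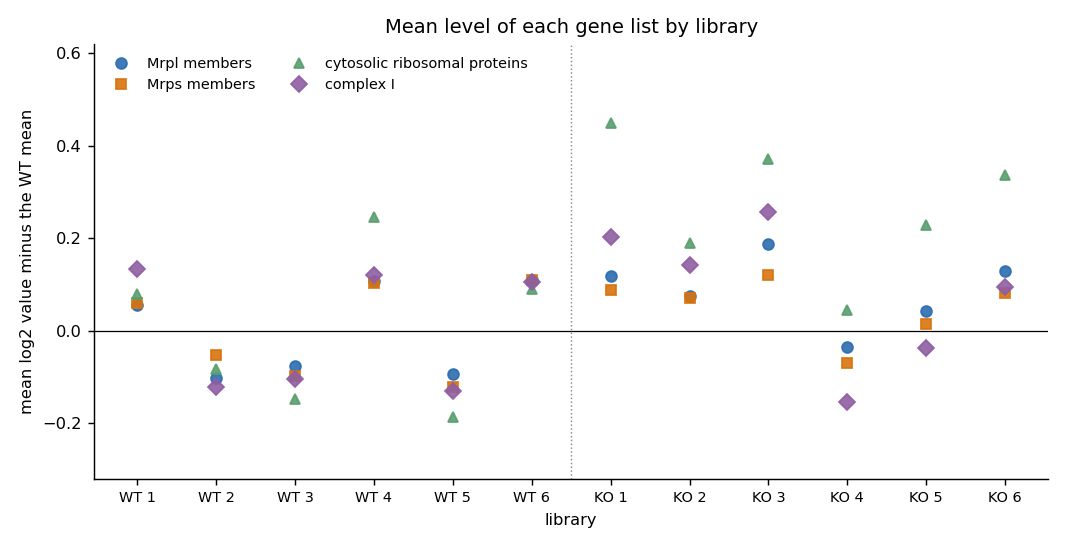
Mean log2 value of large subunit genes, small subunit genes, cytosolic ribosomal protein genes and complex I genes in each library, minus the WT mean of the same list. WT and KO libraries overlap for the mitochondrial ribosome lists, and the cytosolic ribosomal protein genes stand higher in KO, with list means of 11.128 to 11.531 against 10.897 to 11.328 in WT.

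The genes of the cytosolic ribosome, which makes all other proteins of the cell, and of complex I, the first respiratory complex, were measured beside them. Of 82 cytosolic ribosomal protein genes tested, 7 rose (beside 3.11% of all tested genes), none fell and all 82 had a positive change, with a median of 0.268. Of 37 complex I genes none passed the adjusted test, with a median of 0.098 and 29 positive. The mitochondrial ribosome, with its median of 0.064, thus lay nearer to complex I than to the cytosolic ribosome. The lists differ in transcript length, at a median of 776 bases for cytosolic ribosomal protein genes, 782 for complex I genes and 1224 for the 78 members.

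Length moved with the change over the whole table. The median transcript length of all tested genes was 2733 bases. Among the 2397 tested genes of 174 to 1552 bases the median change was 0.071 and 68.6% were positive, and among those of 4445 bases or more it was -0.086, with 29.8% positive. The 51 members in the shortest class had a median of 0.072, with 40 positive, and so lay at the median of that class. In each of the longer classes the members' median was above that of the class. It was 0.056 beside 0.019 for 10 members of 1553 to 2332 bases, 0.128 beside -0.016 for 6 of 2334 to 3166, 0.025 beside -0.052 for 8 of 3168 to 4444 and -0.011 beside -0.086 for the 3 longest. With the trend on length removed, the median of the 78 members was 0.000, with 39 positive and 39 negative, at 0.024 for large and -0.006 for small subunit genes. Mrpl41 kept its call at 0.34 (limma adjusted p = 0.019), as did Mrpl13, and Mrps9 was added as lower.

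**Figure D5:**
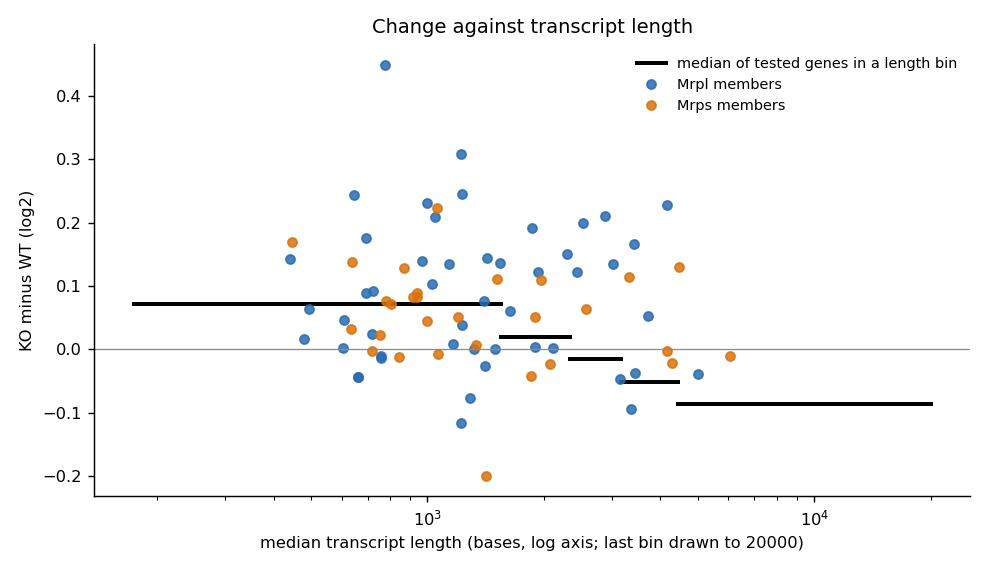
Change of each member (KO minus WT, log2) against median transcript length in bases on a log axis, with black bars for the median change of all tested genes in 5 length classes. The bars fall from 0.071 in the shortest class to -0.086 in the longest, and most members lie around the first bar, with Mrpl41 above it.

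Other genes that serve the mitochondrial ribosome were read in the same way. Of 5 ribosomal proteins with other symbols none passed the adjusted test, with a median of 0.028. Among them Gadd45gip1, at the exit tunnel of the large subunit, had a change of 0.20 (limma adjusted p = 0.231) and Chchd1, of the small subunit, one of 0.11 (0.386). Of 29 tested genes for assembly of the ribosome and modification of its RNA, 1 rose and 1 fell, with a median of 0.024, where 3.11% of all tested genes rose and 3.08% fell. Mtg1, a GTPase of large subunit assembly, lay between 8.58 and 8.71 in WT, between 8.72 and 9.17 in KO, and rose by 0.28 (SE 0.08, limma adjusted p = 0.0495). Fastkd2, an RNA-binding protein needed for the large subunit RNA, lay between 8.70 and 8.83 in WT, between 8.11 and 8.66 in KO, and its change was -0.36 (SE 0.09, limma adjusted p = 0.0334). Neither gene had overlapping groups, although both were named because they passed the test, and the groups of Mtg1 nearly touched. Over all tested genes, 1.26% had every KO library above every WT library and 1.2% every KO library below. The KO values had the larger SD, at 0.187 beside 0.0447 for Mtg1 and 0.231 beside 0.0493 for Fastkd2. The call of Mtg1 held with 1 library left out only without KO 2, KO 4 or KO 5 (adjusted p otherwise up to 0.117, without KO 6), and its adjusted p was above 0.05 without trend or robust moderation (0.0559), with limma-voom (0.0528), with a pseudocount of 0.1 (0.0503), with no filter (0.0574), with a filter at 50 reads and with the length correction (0.0647). That of Fastkd2 held only without WT 4, KO 2, KO 4 or KO 5 (otherwise up to 0.0843, without KO 6).

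Of 14 tested mitochondrial translation factors none passed the adjusted test, with a median of 0.003. The smallest p-values were those of Gfm2, which helps release the ribosome after termination, at -0.30 (limma adjusted p = 0.0597), and of Mtrf1l, a release factor, at 0.22 (0.121). Of 20 tested genes for mitochondrial transcription and mRNA handling none passed, with a median of -0.037 and 16 negative. There, Elac2, which trims tRNA ends, had a change of -0.19 (limma adjusted p = 0.191) and Tfb2m, a transcription initiation factor, one of -0.20 (0.197). Of 10 known activators of nuclear genes for mitochondrial proteins none passed, with a median of -0.050. Myc had a change of 0.28 (limma adjusted p = 0.0806) and Gabpa one of -0.27 (0.11). Myc is low, with 20.9 to 84.2 estimated reads, and the deposited scale compresses its difference. On estimated reads with limma-voom it was 0.64 (adjusted p = 0.0738) and that of Gabpa -0.32 (0.114).

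Slow fibre markers varied widely between the mice. The list means of the 10 fast fibre markers varied less, at 17.278 to 17.460 in WT and 16.953 to 17.458 in KO. The changes of these 10 ran from -1.397 to 0.377, with 5 positive and 5 negative. All 8 slow fibre markers had a negative change, none passed the adjusted test, and the median was -1.828. At an unadjusted limma p of 0.05 or less, 6 of the 8 were lower in KO, where 14.1% of all tested genes were. WT libraries had list means of 9.117 to 12.301, and KO libraries 6.921 to 10.244. Myh7, the slow myosin heavy chain, had a change of -3.37 (limma adjusted p = 0.128). Slow fibres are rich in mitochondria, and their part in the values of the mitochondrial ribosomal protein genes was not tested. Among markers of other cells, the median change was -0.219 for 10 endothelial genes (1 fell), 0.220 for 10 macrophage genes and 0.167 for 9 fibroblast genes. It was -0.338 for 3 tested adipocyte genes (1 fell) and 0.076 for 6 tested satellite cell genes (1 fell). By the same adjusted test, 3.08% of all tested genes fell, and lists this short can tell little from 1 call. The part of these cells was not tested either.

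Promoters of nuclear genes for mitochondrial proteins are known to carry sites of a few general activators. For 69 of the 78 genes a promoter of 300 bases was at hand from RefSeq (GRCm38.p6), and 3 motifs of 8 bases were searched on both strands, with overlaps between motifs allowed. GCGCATGC, the core of the palindromic site of NRF1, occurred in 8 of the 69 (11.6%), in 6.07% of 9483 tested genes and in 3.05% of all 27025 genes with a promoter. CCGGAAGT, bound by GABPA and other ETS factors, occurred in 12 (17.4%), in 9.11% of tested genes and in 4.31% of all. AAGATGGC, bound by YY1, occurred in 12 (17.4%), in 5.44% of tested genes and in 3.19% of all. At least 1 of the 3 was present in 29 (42%), beside 19.1% of tested genes and 9.91% of all. By symbol, 43 of the 69 are large and 26 small subunit genes. The NRF1 motif occurred in 7 large and 1 small, the ETS motif in 8 and 4, and the YY1 motif in 6 and 6. These counts are small and were not tested. A match is a run of letters, and binding was not measured here.

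Matched stretches with 10 bases on each side are shown for some genes of each motif, with the motif in capitals, on the strand of the gene and in GRCm38.p6 coordinates. The first group carries the NRF1 motif.
Mrpl33, chr5:31613929-31613956, plus strand: accggaacccGCGCATGCcccggaagta
Mrpl22, chr11:58171621-58171648, plus strand: gcctcggactGCGCATGCgtatagtcag
Mrpl17, chr7:105811081-105811108, minus strand: ccgagttactGCGCATGCgtcctctgag
In these 3 genes the motif lies just before the start. Mrpl33 also holds the ETS motif directly after it, so the shown stretch holds that motif too, in lower case. The next group carries the ETS motif, before the start.
Mrps22, chr9:98601673-98601700, minus strand: acctctcgagCCGGAAGTtgctctatcg
Mrpl51, chr6:125192100-125192127, plus strand: aggggctaaaCCGGAAGTatttgactgg
Mrpl3, chr9:105053239-105053266, plus strand: gagaaacggaCCGGAAGTggcccggctg
The last group carries the YY1 motif, which in these genes lies just after the start.
Mrpl35, chr6:71823744-71823771, minus strand: ggcaggctgcAAGATGGCggcttccatc
Mrps7, chr11:115604148-115604175, plus strand: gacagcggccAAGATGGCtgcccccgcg
Mrps27, chr13:99344790-99344817, plus strand: ggtgcgctccAAGATGGCggctcccatg
Genes with and without a motif had similar changes. The median change was 0.060 for the 29 genes with any motif and 0.086 for those without. It was 0.091 with and 0.064 without the NRF1 motif, 0.034 and 0.082 for the ETS motif, and 0.049 and 0.082 for the YY1 motif. Mrpl33 had a change of 0.02 (limma adjusted p = 0.942), Mrpl22 one of 0.09 (0.488) and Mrpl17 one of 0.23 (0.116).

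Mrps11 and Mrpl46 are a small and a large subunit gene that start back to back on chromosome 7. Their RefSeq starts, at 78783131 and 78783089, lie 42 bases apart on opposite strands, and the genes do not overlap. In GENCODE M21 the starts are 78783119 and 78783531, 412 bases apart, so that the annotated genes overlap at their starts. The RefSeq promoter windows share 141 bases. Mrpl46 encodes a large subunit protein found only in mitochondrial ribosomes. It stood at 8.59, 8.61, 8.52, 8.53, 8.63 and 8.67 in WT and at 8.76, 8.67, 8.84, 8.51, 8.79 and 8.81 in KO, a difference of 0.14 (SE 0.07, limma adjusted p = 0.212). KO 4 was the lowest KO library for both genes of the pair. The window of Mrps11 is shown with the YY1 motif in capitals, which here reads on the opposite strand and lies outside the window of Mrpl46.
Mrps11, chr7:78782881-78783180, plus strand: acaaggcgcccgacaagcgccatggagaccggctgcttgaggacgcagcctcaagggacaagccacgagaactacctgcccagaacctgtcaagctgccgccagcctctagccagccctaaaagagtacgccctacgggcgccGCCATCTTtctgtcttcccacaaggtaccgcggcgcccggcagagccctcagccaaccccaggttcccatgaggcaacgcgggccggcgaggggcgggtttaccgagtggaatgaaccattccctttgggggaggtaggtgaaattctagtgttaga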

How the data were processed

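Each library has 1 value per gene, on a log2 scale, in the authors' deposited table of 24528 symbols. The tools fastp, STAR and featureCounts and the build mm10 are listed per the submitters' processing notes. Tool versions, settings, gene annotation and normalization: not given in the sources used here. The deposited log2 values share a floor of 5.57 in every library, as variance-stabilized data have, and such data compress differences between low genes. No source names the transformation, and its usual form was inverted to estimate reads, and 88.6% to 92.6% of a library's low values came within 0.1 of a whole number. These approximate reads served only for the filter, depth, levels and some alternatives.

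The filter kept genes that reached 10 estimated reads in 6 or more libraries. The test was limma 3.58.1 under R 4.3.3 with group as the only term, a variance trend and robust moderation. P-values are two-sided, with Benjamini-Hochberg adjustment over all tested genes. Exact permutation tests ran over all 924 assignments. P-values set the difference between the groups against the spread between mice. The fit was tested on simulated data with noise independent between genes and planted changes larger than that of any member. It therefore does not cover changes as small as those of the members, or genes that move together.

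Members, gene lists, markers and motifs were chosen with earlier results of these data known. Named members are, within each subunit, those called, filled up to 4 by p, the largest positive and most negative change and the highest and lowest level, with Mrps30, Mrps18a and Mrps36. From each other list the called genes or the 2 smallest p were named. The 7 further genes at unadjusted p of 0.05 or less, the other levels, the partners and the motif examples were chosen after their values were seen. Lengths (median of basic transcripts) and overlaps come from GENCODE M21, on mm10. Wbscr16, Mtrfr, Mtres1 and Prorp were not matched in the table. Alternatives covered other tests, scalings, pseudocounts, filters, a length correction, a replicate block and each library left out.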

Additional observations from a re-analysis of the deposited data

How the results depend on the processing

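The number of members higher in KO was 2, and it was 1, Mrpl41, under limma without trend or robust moderation, limma-voom on estimated reads, no filter and the replicate block, where Mrpl13 had adjusted p of 0.0519, 0.0506, 0.054 and 0.0628. It was 3 after quantile normalization, with Mrps11 added. Without 1 library it ran from 1 to 4. The 4 genes were Mrpl13, Mrpl24, Mrpl41 and Mrps11 without WT 4, and Mrpl13, Mrpl14, Mrpl41 and Mrps11 without KO 4. The number lower in KO was 0, and 1 (Mrps9) with the length correction. The median change of the members, 0.064, ran from 0.035 to 0.098 without 1 library, was 0.10 after quantile normalization and 0.000 with the length correction. That of the large subunit ran from 0.053 to 0.111 and that of the small subunit from 0.015 to 0.083.

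Some changes near 0 turned sign. Mrps35 was 0.003 with voom, 0.007 with centred libraries, 0.006 with quantile normalization and 0.055 with the length correction, and -0.05 to 0.04 without 1 library. Mrpl42 was 0.022 with quantile normalization. With the length correction Mrps18a was -0.088 (-0.028 to 0.062 without 1 library), Mrps36 -0.093 and Chchd1 -0.020. The cause was not tested.

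The labels do not say whether the replicate numbers pair the mice. Deviations of same-numbered libraries correlated at -0.361 to 0.291, over 0.1 in 2 of 6 pairs. Of the 6 WT libraries, 1 correlated best with its own number. Such correlations cannot settle whether mice were paired. With the replicate block Mtg1 had adjusted p of 0.0593. The replicate block gave 811 called genes beside 756 without it. Without 1 library that number ran from 194 to 1515, so calls near the threshold depend on single mice.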

Other observations

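Many mitochondrial ribosomal protein genes share a start region with a neighbour. For 25 of the 78 (32.1%, 17 large and 8 small subunit genes) another coding gene starts on the opposite strand within 500 bases, beside 1579 of 11655 tested coding genes (13.5%). Of these neighbours 22 were tested and none passed the adjusted limma test, and 15 of the 22 had a change of the same sign as the member. Mrps11 and Mrpl46 are each the other's neighbour, and both count among the 22 and the 15. Most members had a positive change, as did 15 of the 22 neighbours, so the count of shared signs cannot be read as a link within pairs. The median change was 0.109 for the 25 members with such a neighbour, 0.051 for the other 53 and 0.118 for the neighbours. Fau, which encodes a cytosolic ribosomal protein fused to a ubiquitin-like part and starts 59 bases from Mrpl49, had a change of 0.36 (limma adjusted p = 0.0629), beside 0.14 for Mrpl49. Sars2, the mitochondrial seryl-tRNA synthetase next to Mrps12, had one of 0.16 (0.139), and Ndufs6, a complex I gene 29 bases from Mrpl36, one of 0.20 (0.28). Psma2, a proteasome subunit gene 75 bases from Mrpl32, had a change of 0.14 (0.332), beside 0.13 for Mrpl32. Other neighbours had the opposite sign to the member, such as Ppp1r10 next to Mrps18b, at -0.22 (limma adjusted p = 0.204). Wdfy1, next to Mrpl44, stood at -0.21 (0.481). The neighbours named here were chosen after their values were seen.

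The 78 genes lie on 17 chromosomes, with 11 on chromosome 11 and 8 on chromosome 17. Exons of 26 overlap those of another gene, and in 16 more than 10% of the exonic bases are shared, up to 100% for Mrpl53, 59.1% for Mrps18b and 58.2% for Mrps25. The values of these genes are uncertain to that extent, as the libraries did not mark strand. Some of the overlapping genes, such as Gm42688 at Mrpl53, lie on the same strand, where marking strand would not separate the reads. Annotated pseudogenes named after Mrpl23, Mrpl48 and Mrps36 number 5.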
